A study of Mus musculus with 8 samples.

Results

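Genes that mark the cells of blood vessels, lymphatic vessels and their pericytes were followed in RNA from the stroma of the mouse uterus. The set holds 32 genes of the 23420 gene symbols counted. They were found by symbol in the count tables, and all 32 were present. Of these, 26 mark blood endothelium, 2 mark lymphatic endothelium (Lyve1 and Prox1) and 4 mark pericytes (Rgs5, Cspg4, Kcnj8 and Abcc9). The members were picked by name and not by their values in these libraries.

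The libraries come from uterine stromal cells taken at day 3, 4 of them under the label Erbb3f/f and 4 under Erbb3d/d. By convention f stands for a loxP-flanked allele, and d for what remains once Cre has cut the flanked part out. ERBB3 is a neuregulin receptor related to EGFR. The labels name no Cre line, no promoter or cell type that drives it, no event from which day 3 is counted, no age or strain, and no number of mice per library. Nothing in them says that the libraries came from separate animals, so p-values measure only the spread between these libraries.

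Reads in genes numbered 8578575 to 12854367 per library, 27.0% to 29.1% of all entries in the tables. Erbb3 checks the labels. Its level was 7.40, 10.6, 8.25 and 12.3 CPM across Erbb3f/f replicates 1 to 4, where CPM is the count per 1000000 reads in genes, scaled by TMM. The Erbb3d/d replicates 1 to 4 had 7.37, 14.3, 17.7 and 16.2 CPM. It was thus not lower under the Erbb3d/d label (log2 fold change 0.53, SE 0.28, adjusted p = 0.485 in edgeR's quasi-likelihood test), and reads summed over all exons cannot show whether some exon is missing. The groups are therefore named by their labels, and every direction below is that of the label.

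Endothelial cells line all vessels. They hold together through junction proteins such as VE-cadherin and claudin-5, read angiopoietins and other cues through receptor kinases such as TIE2, and owe their identity to ETS and SOXF transcription factors. Lymphatic endothelium is set apart by the transcription factor PROX1. Pericytes wrap the small vessels from outside and carry potassium channels that tune vascular tone. In the mouse uterus the stroma is densely vascularised, and vessels are remodelled around implantation. The labelled cell type is stromal, so transcripts of these cells are measured here inside a bulk preparation, in which fewer cells of a type and less RNA per cell cannot be told apart.

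ETS factors such as ERG and FLI1, both members, bind sites with the core GGAA, and 17 of the 32 members had an entry in RefSeq's promoter table (build GRCm38.p6), in 22 windows. The 250 bases before each start were searched on both strands for 7 motifs: the ETS core GGAA, the longer ETS form CAGGAAG and its variant CCGGAAG, the shorter ETS form GGAAGT, the SOX form ACAAAG, the shorter SOX form ACAAT, and the E-box form CANNTG. The core lies within each of the 3 other ETS forms, and CAGGAAG overlaps GGAAGT wherever a T follows. CAGGAAG was in 7 of 22 member windows, belonging to Cd34, Egfl7, Emcn, Erg, Rasip1 and Robo4, and in 10.8% of all 32851 windows of the table. CCGGAAG was in 0 of 22 (6.91% of all windows), GGAAGT in 4 (19.7%), ACAAAG in 4 (16.5%), ACAAT in 9 (27.7%), CANNTG in 13 (66.2%) and GGAA in 19 (93.4%). A match is a description of letters and not a bound site. Shown here, 5′ to 3′ on the strand of the gene, are 3 windows with CAGGAAG or its reverse complement in capitals and, for contrast, that of Clec14a, which holds neither and whose level was the steadiest of the set. Each is cut where an annotated exon begins. They are chr1:194938571-194938818 (plus strand, Cd34), chr2:26583615-26583863 (plus strand, the middle one of 3 Egfl7 windows), chr3:137340828-137341066 (plus strand, Emcn) and chr12:58269291-58269508 (minus strand, Clec14a). The match begins 142, 81 and 174 bases before the start in the first 3.
Cd34: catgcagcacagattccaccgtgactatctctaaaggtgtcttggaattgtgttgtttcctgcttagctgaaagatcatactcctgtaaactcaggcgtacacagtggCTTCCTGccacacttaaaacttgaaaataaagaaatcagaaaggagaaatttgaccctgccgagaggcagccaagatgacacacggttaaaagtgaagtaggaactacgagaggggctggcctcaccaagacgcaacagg
Egfl7: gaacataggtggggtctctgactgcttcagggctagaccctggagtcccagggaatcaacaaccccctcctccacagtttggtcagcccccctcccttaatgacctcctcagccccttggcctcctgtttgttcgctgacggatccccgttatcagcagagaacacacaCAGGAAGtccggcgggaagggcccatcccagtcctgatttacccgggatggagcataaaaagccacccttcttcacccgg
Emcn: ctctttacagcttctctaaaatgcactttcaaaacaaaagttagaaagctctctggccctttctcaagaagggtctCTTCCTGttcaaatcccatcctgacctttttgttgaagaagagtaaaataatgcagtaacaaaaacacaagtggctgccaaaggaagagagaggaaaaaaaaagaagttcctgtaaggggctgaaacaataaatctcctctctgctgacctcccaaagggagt
Clec14a: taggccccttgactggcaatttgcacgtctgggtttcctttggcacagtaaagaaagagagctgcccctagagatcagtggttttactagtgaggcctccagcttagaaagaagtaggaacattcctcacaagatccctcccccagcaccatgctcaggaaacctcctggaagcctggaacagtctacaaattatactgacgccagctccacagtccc

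All 32 members were detected in every library and passed the filter on low counts. The defining endothelial markers Pecam1, Cdh5, Tek, Cldn5, Emcn and Egfl7 each had at least 47 reads in every library. They are themselves members picked by name, so their presence does not test which cells the set measures. To compare genes with each other, CPM was divided by the merged exon length in kilobases. On that scale the mean over 8 libraries ran from 0.632 CPM per kb for Gpihbp1, which anchors lipoprotein lipase on capillaries, to 53.5 for Cd34, a sialomucin of endothelium and of many stromal progenitors. Cdh5, which encodes VE-cadherin, followed at 41.2, Eng, a TGF-beta co-receptor, at 22.4 and Cldn5, the endothelial tight junction claudin, at 19.3. Pecam1, the adhesion molecule of endothelial contacts, had 8.67 CPM per kb, which puts Cdh5 well above it, and Vwf, the von Willebrand factor of endothelial granules, had 0.877. Among pericyte genes Rgs5, a regulator of G-protein signalling, had 12.9 CPM per kb, Kcnj8 and Abcc9, the pore and the regulatory subunit of the vascular KATP channel, had 7.33 and 2.61, and Cspg4, the NG2 proteoglycan, had 3.87.

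**Figure D1:**
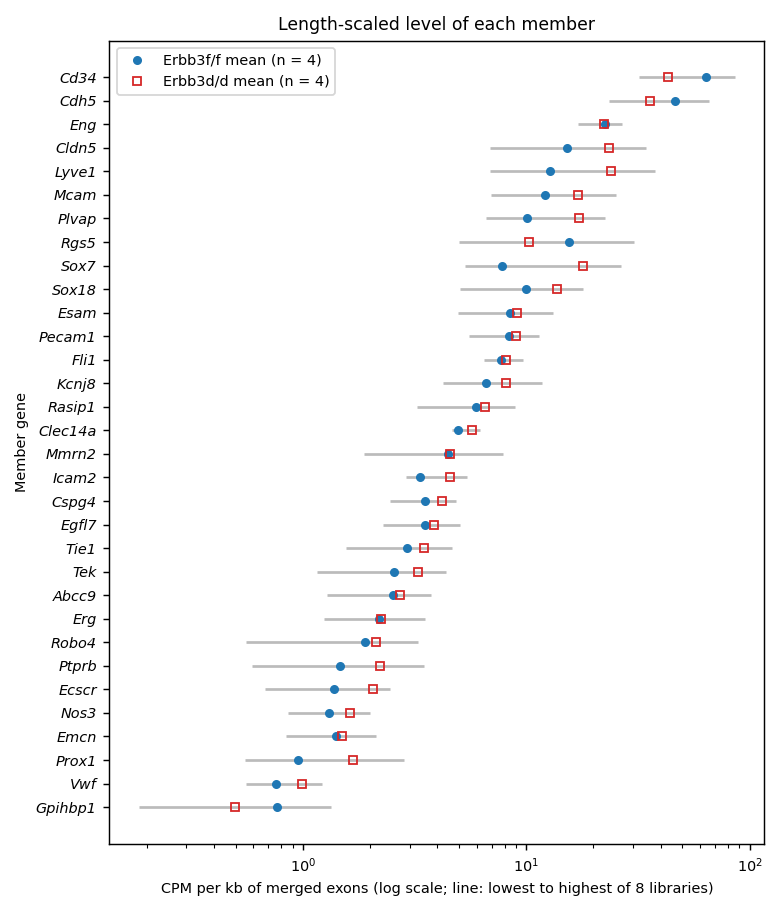
Level of each member in CPM per kilobase of merged exons on a log axis, with the genotype means (n = 4 each) as symbols and a line from the lowest to the highest of the 8 libraries. Cd34 and Cdh5 lie at the top, Vwf and Gpihbp1 at the bottom, and for most members the line is far longer than the distance between the genotype means.

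The comparison of the genotypes asked whether vascular genes of the stroma differ when Erbb3 is targeted. Testing 14598 genes with edgeR's quasi-likelihood method gave 0 members with an adjusted p under 0.05, higher or lower, and the share called over all genes was 0.0%. At an unadjusted p under 0.05 there were 2 members, Sox7 and Plvap, both higher in the Erbb3d/d libraries. That is 6.25% of the members beside 6.64% of all genes tested, and for lower values it is 0 members beside 4.97% (11.6% of genes in either direction). No member had 4 values of one label wholly above the 4 of the other, a pattern seen in 2.56% of genes upward and 2.48% downward, 5.04% in all. DESeq2 and limma-voom also called 0 members, although DESeq2 called 262 other genes (1.79% of those tested). Without Erbb3d/d replicate 2, edgeR called 259 genes (1.75%) and again 0 members.

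Log2 fold changes of Erbb3d/d over Erbb3f/f lay above 0 for 22 of 26 blood endothelial members, 2 of 2 lymphatic and 3 of 4 pericyte members, beside 48.0% of all genes tested. Among markers of other cells, log2 fold changes were above 0 for 12 of 12 smooth muscle markers (median 0.999, summed level 1464 to 2509 CPM in Erbb3f/f libraries and 2711 to 5700 in Erbb3d/d) and for 10 of 12 epithelial markers (median 0.63, 895 to 1442 and 1376 to 2210 CPM). They were below 0 for 10 of 13 stromal fibroblast markers (median -0.28, 14000 to 17740 and 11800 to 16170 CPM). EdgeR gave 0 of these markers an adjusted p under 0.05 (unadjusted: 11 and 9 higher, 5 lower, in that order), and their part in the vascular values was not tested. The members' median was 0.19 over blood endothelial and 0.18 over pericyte members, beside -0.01 over all genes. Single libraries moved these medians. Leaving out 1 library at a time gave 0.08 (without Erbb3f/f replicate 4) to 0.43 (without Erbb3f/f replicate 2) for blood endothelium, and -0.0022 (without Erbb3d/d replicate 1) to 0.41 (without Erbb3f/f replicate 2) for pericytes.

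**Figure D2:**
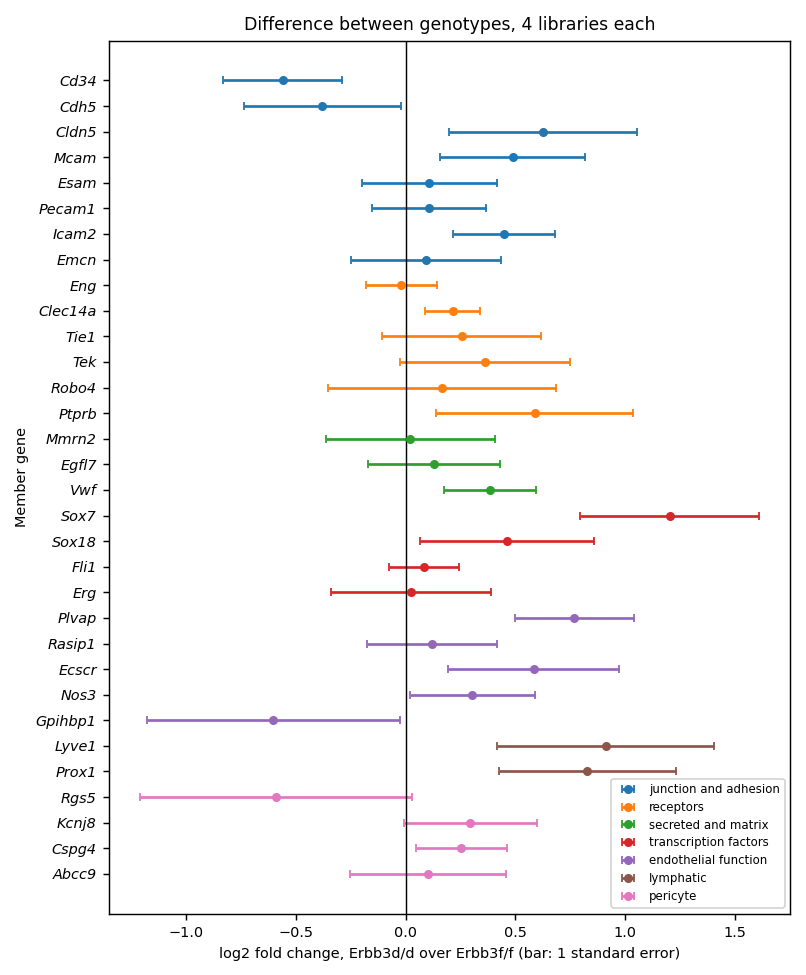
Log2 fold change of each member, Erbb3d/d over Erbb3f/f, with a bar of 1 standard error, coloured by role. Sox7 has the highest value at 1.20 and Gpihbp1 the lowest at -0.60, and the bars of many members cross 0.

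Libraries of one label varied more for the members than for most genes. The ratio of the highest to the lowest Erbb3f/f library had a median of 2.41 over the blood endothelial members, 2.58 over the pericyte members and 1.38 over all genes tested. A ratio of at least 2 was found in 24 of 32 members (75.0%) among the Erbb3f/f libraries, beside 18.7% of all genes. Among the Erbb3d/d libraries it was found in 17 of 32 members (53.1%), beside 22.1% of all genes. Such a ratio was not confined to the members. It was found in 6 of 12 smooth muscle markers among the Erbb3f/f libraries and 10 of 12 among the Erbb3d/d libraries. Mesothelium markers had it in 4 of 5 under each label, and stromal fibroblast markers in 0 of 13 under Erbb3f/f and 4 of 13 under Erbb3d/d. The spread between replicates that edgeR fitted, as a coefficient of biological variation, had a median of 0.339 over the members and 0.175 over all genes.

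The same few libraries were low for most members. Erbb3f/f replicate 4 held the lowest value of the 8 libraries for 17 of 32 members and Erbb3f/f replicate 3 for 10, whereas these libraries were lowest for 9.56% and 10.5% of all genes tested. The remaining 5 members had their lowest value in an Erbb3d/d library. Low values in these libraries were not particular to the members. Erbb3f/f replicate 3 was also lowest for 11 of 12 smooth muscle and 7 of 12 epithelial markers. Erbb3f/f replicate 4 was lowest for 9 of 17 other pan-endothelial genes. Neither was lowest for any of 13 stromal fibroblast markers, and Erbb3f/f replicate 3 was highest for 9 of 14 leukocyte markers. Highest values fell in Erbb3d/d replicate 2 for 9 members, in Erbb3f/f replicate 2 and Erbb3d/d replicate 1 for 6 each, and in Erbb3f/f replicate 1 for 5. As a median over the 26 blood endothelial members, log2(CPM + 0.5) deviated from the gene's own mean by 0.33, 0.22, -0.42 and -0.60 across Erbb3f/f replicates 1 to 4. Across Erbb3d/d the same median was 0.22, 0.42, -0.35 and 0.17. Over all genes tested it stayed between -0.000689 and 0.02.

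**Figure D3:**
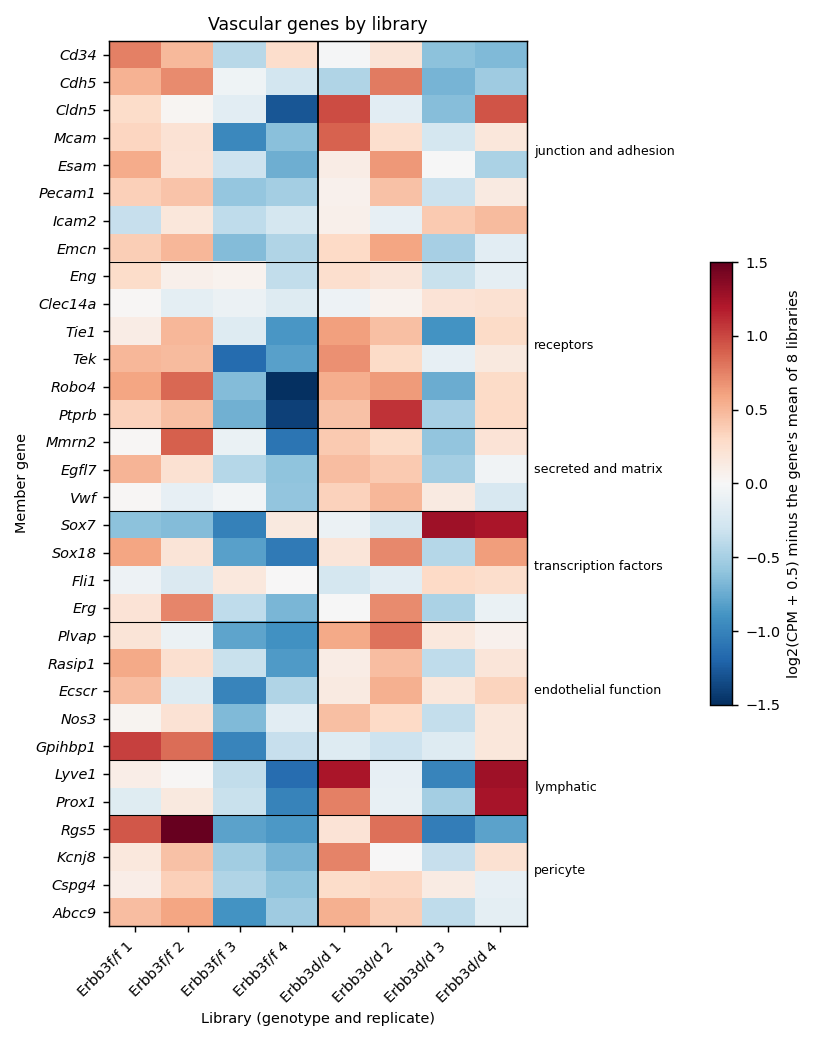
Each member in each library as log2(CPM + 0.5) minus the gene's mean over 8 libraries, grouped by role, with red above and blue below that mean. Erbb3f/f replicates 3 and 4 and Erbb3d/d replicate 3 are blue for most blood endothelial and pericyte genes and for both lymphatic genes, which are reddest in Erbb3d/d replicates 1 and 4, while Sox7 is reddest in Erbb3d/d replicates 3 and 4.

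Junction and adhesion genes included the members highest per length, Cd34 and Cdh5, but reached down to Emcn at rank 29 of 32. Pecam1 had 66.6, 70.2, 34.6 and 36.5 CPM in Erbb3f/f replicates 1 to 4 and 54.4, 70.8, 41.6 and 57.2 CPM in Erbb3d/d replicates 1 to 4. Its groups overlapped throughout, with replicates 3 and 4 of Erbb3f/f lowest, and its log2 fold change was 0.11 (SE 0.26). Cldn5 had 29.7, 24.9, 21.8 and 9.72 CPM in Erbb3f/f and 48.4, 21.8, 15.5 and 47.3 CPM in Erbb3d/d, so that Erbb3d/d replicates 1 and 4 lay above every Erbb3f/f library while replicates 2 and 3 lay inside their range. Esam, an adhesion molecule of endothelial tight junctions, ranged from 14.2 to 37.8 CPM, Emcn, an endothelial sialomucin, from 4.56 to 11.4 and Icam2, a leukocyte ligand on endothelium, from 5.50 to 10.4. Mcam, the adhesion molecule CD146, is made by pericytes and smooth muscle as well as endothelium. Its mean and SD were 40.8 ± 17.0 CPM under Erbb3f/f and 57.2 ± 19.7 under Erbb3d/d (n = 4 libraries each).

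Cdh5 and Cd34, the members highest per length, were 2 of the 5 with a log2 fold change below 0, beside Eng, Rgs5 and Gpihbp1. Cdh5 had 231.9, 264.0, 154.0 and 133.3 CPM in Erbb3f/f replicates 1 to 4. Among Erbb3d/d, replicates 1, 3 and 4 had 117.6, 99.0 and 110.8 CPM, below all Erbb3f/f libraries, and replicate 2 had 275.3 CPM, the highest of the 8. The log2 fold change was -0.38 (SE 0.36, adjusted p = 0.722, edgeR), and without Erbb3d/d replicate 2 it was -0.84 (adjusted p = 0.0989, edgeR). Cd34 had 625.0, 517.2, 275.3 and 441.4 CPM in Erbb3f/f and 365.4, 420.9, 241.3 and 232.9 CPM in Erbb3d/d, with means of 464.7 ± 147.0 and 315.1 ± 92.9 CPM (SD, n = 4 each). Its groups overlapped, 2 Erbb3d/d libraries lying below the lowest Erbb3f/f one, and its log2 fold change was -0.56 (SE 0.27, adjusted p = 0.466, edgeR).

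Relative to Pecam1 in the same library, 2 members separated the labels, and this ratio was chosen after the values were seen. The ratio of Cd34 to Pecam1 in CPM was 9.38, 7.37, 7.96 and 12.1 across Erbb3f/f replicates 1 to 4, against 6.71, 5.94, 5.80 and 4.07 across Erbb3d/d. Every Erbb3d/d library was thus below every Erbb3f/f library, as held for 1.51% of all genes. Cd34 is also a gene of stromal progenitors, and 10 of 13 stromal fibroblast markers had a log2 fold change below 0. The part of such cells in this ratio was not tested. The ratio of Plvap to Pecam1 was 0.433, 0.336, 0.416 and 0.359 in Erbb3f/f and 0.688, 0.629, 0.674 and 0.460 in Erbb3d/d, without overlap in the other direction, as held for 0.24% of all genes. The other 29 members overlapped between the labels on this scale. For Cdh5 the ratio was 3.48 to 4.45 in Erbb3f/f and 1.94 to 2.38 in 3 Erbb3d/d libraries, with 3.89 in Erbb3d/d replicate 2.

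Plvap encodes the protein of endothelial diaphragms, which marks fenestrated and venous capillaries. It had 28.8, 23.6, 14.4 and 13.1 CPM in Erbb3f/f replicates 1 to 4 and 37.4, 44.6, 28.1 and 26.3 CPM in Erbb3d/d replicates 1 to 4. Replicates 1 and 2 of Erbb3d/d exceeded all Erbb3f/f libraries, while replicates 3 and 4 lay just below Erbb3f/f replicate 1. The log2 fold change was 0.77 (SE 0.27), and edgeR gave it an unadjusted p of 0.0176 and an adjusted p of 0.337. It stayed between 0.62 and 1.01 over 16 alternative analyses, and no adjusted p among them was under 0.0774.

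Receptors of the endothelial surface differed in how much they varied between libraries. Tek encodes TIE2, the angiopoietin receptor, and Tie1 its partner. Tek had 18.0, 17.8, 5.42 and 7.01 CPM in Erbb3f/f replicates 1 to 4 and 20.6, 15.5, 11.6 and 14.1 CPM in Erbb3d/d, with Erbb3f/f replicates 3 and 4 below all other libraries. Tie1 ranged from 7.64 to 22.8 CPM. Ptprb, the phosphatase VE-PTP that restrains TIE2, ranged from 7.91 to 46.5, and Robo4, an endothelial roundabout receptor, from 2.94 to 17.3. Eng, the receptor highest per length, had 108.2, 94.6, 92.5 and 69.3 CPM in Erbb3f/f and 106.8, 101.1, 70.7 and 81.2 CPM in Erbb3d/d, a log2 fold change of -0.02 (SE 0.16). Clec14a, an endothelial lectin, had 24.5, 21.8, 22.7 and 21.1 CPM in Erbb3f/f and 23.0, 25.2, 28.0 and 28.3 CPM in Erbb3d/d. Its fitted variation of 0.140 was the smallest of the 32. Erbb3f/f replicate 4 was its lowest library too, but its highest and lowest Erbb3f/f libraries differed only 1.16-fold, beside 3.32-fold for Tek.

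Matrix-associated members gave little separation. Mmrn2, a multimerin of the endothelial matrix that binds CLEC14A, had 16.9, 31.3, 15.4 and 7.46 CPM in Erbb3f/f and 22.0, 20.3, 10.8 and 19.1 CPM in Erbb3d/d. With a log2 fold change of 0.02 (SE 0.39), every Erbb3d/d value lay inside the Erbb3f/f range. Egfl7, a secreted endothelial factor, ranged from 8.14 to 18.1 CPM with a log2 fold change of 0.13 (SE 0.30). Vwf was above the highest Erbb3f/f library, 13.9 CPM, in 3 of 4 Erbb3d/d libraries, with 17.6, 19.6 and 15.1 CPM, but at 11.6 CPM in the other (log2 fold change 0.38, SE 0.21).

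Among transcription factors, Sox7 departed from the rest. SOX7 and SOX18 are SOXF proteins that act in endothelial specification, and ERG and FLI1 are ETS proteins. Sox7 had 23.3, 22.6, 17.5 and 39.7 CPM in Erbb3f/f replicates 1 to 4 and 33.7, 29.9, 87.7 and 84.5 CPM in Erbb3d/d replicates 1 to 4. Replicates 3 and 4 of Erbb3d/d had more than any other library, and the other 2 Erbb3d/d values lay below Erbb3f/f replicate 4. The log2 fold change was 1.20 (SE 0.41), and edgeR gave it an unadjusted p of 0.0168 and an adjusted p of 0.337. By DESeq2 the adjusted p was 0.0554. Without Erbb3d/d replicate 3 it was 0.95 (adjusted p = 0.589, edgeR) and without replicate 4 it was 0.98 (adjusted p = 0.721, edgeR).

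Sox18 had 26.6, 20.1, 9.74 and 8.14 CPM in Erbb3f/f and 19.9, 29.0, 12.8 and 27.3 CPM in Erbb3d/d, with Erbb3f/f replicates 3 and 4 lowest, as for Tek and not for Sox7. The ratio of Sox7 to Sox18 ran from 0.876 to 4.88 in Erbb3f/f and from 1.03 to 6.83 in Erbb3d/d. Epithelial markers moved with Sox7. The summed CPM of 12 uterine epithelial markers was 1315, 1111, 895 and 1442 across Erbb3f/f replicates 1 to 4, against 1376, 1421, 2161 and 2210 across Erbb3d/d, and 10 of the 12 had a log2 fold change above 0, none of them being at 0 reads. Their part in the level of Sox7 was not tested. Erg ranged from 4.30 to 12.3 CPM with a log2 fold change of 0.02 (SE 0.37). Fli1, which leukocytes also express, ranged from 22.6 to 33.7 CPM with a log2 fold change of 0.08 (SE 0.16).

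Of the remaining endothelial genes, Nos3, the endothelial nitric oxide synthase, ranged from 3.54 to 8.26 CPM over the 8 libraries (log2 fold change 0.30, SE 0.28). Rasip1, an effector of small GTPases in vessel lumen formation, ranged from 10.4 to 28.4 CPM (0.12, SE 0.30). Ecscr, an endothelial surface protein of cell migration, ranged from 1.18 to 4.32 CPM (0.58, SE 0.39). Gpihbp1 was the sole member with under 10 reads in some library. Its reads numbered 35, 28, 6 and 9 across Erbb3f/f replicates 1 to 4, then 12, 9, 15 and 19 across Erbb3d/d, so that only Erbb3f/f replicates 1 and 2 stood above the rest (log2 fold change -0.60, SE 0.58). Exons of Egfl7, Eng, Cd34, Ecscr, Nos3, Rasip1 and Abcc9 overlap those of other counted genes by 61 to 654 bases in GENCODE vM21, mostly on the opposite strand. Their counts are uncertain to that extent. Opposite-strand overlaps matter since the libraries do not mark strand. The 654 bases that Rasip1 shares with Izumo1 lie on the same strand.

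**Figure D4:**
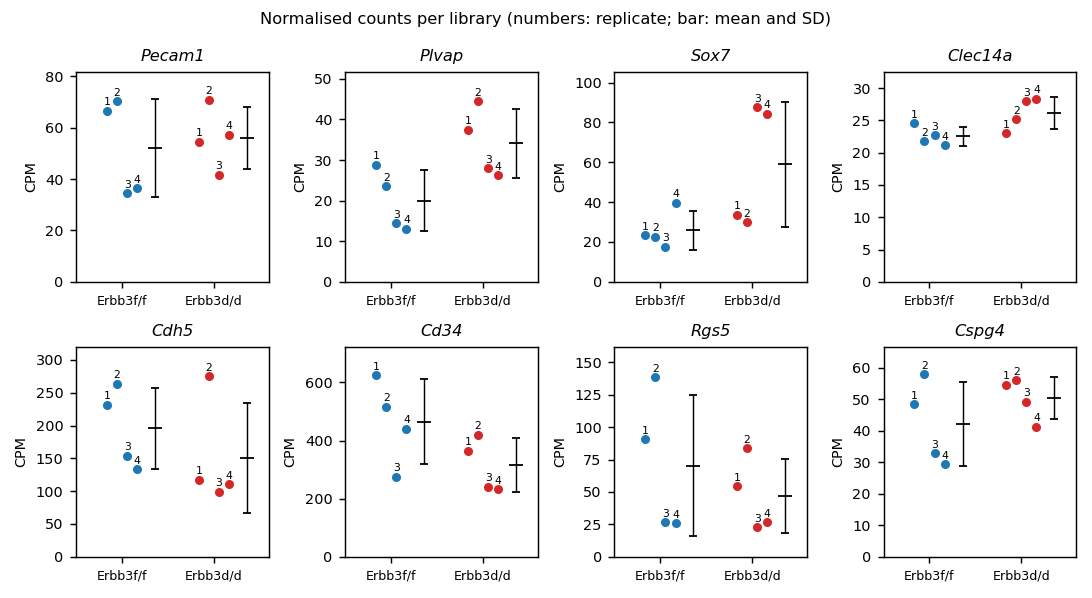
CPM of 6 blood endothelial and 2 pericyte members in each library, numbered by replicate, with the mean and SD of each genotype beside the points. Pecam1 overlaps throughout, Plvap and Sox7 reach their highest values in Erbb3d/d, Cdh5 and Cd34 are low in most Erbb3d/d libraries, and Rgs5 spreads most within one label.

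Lymphatic genes gave some of the largest differences and depended on 2 libraries. Lyve1 encodes a hyaluronan receptor of lymphatic endothelium that some tissue macrophages also carry. It had 48.0, 45.5, 34.8 and 20.01 CPM in Erbb3f/f replicates 1 to 4 and 106.0, 41.4, 22.5 and 109.6 CPM in Erbb3d/d replicates 1 to 4. Replicates 1 and 4 of Erbb3d/d thus had more than any Erbb3f/f library, whereas replicates 2 and 3 lay inside the Erbb3f/f range. The log2 fold change was 0.91 (SE 0.49, adjusted p = 0.514, edgeR).

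Prox1 had 8.57, 10.9, 7.62 and 4.64 CPM in Erbb3f/f and 16.9, 8.98, 6.70 and 23.8 CPM in Erbb3d/d, with the same Erbb3d/d libraries high, at a log2 fold change of 0.83 (SE 0.40, adjusted p = 0.464, edgeR). Both genes were lowest in Erbb3f/f replicate 4 and highest in Erbb3d/d replicate 4. Their 3 lowest libraries, Erbb3f/f replicates 3 and 4 and Erbb3d/d replicate 3, were also those with the lowest medians for blood endothelium, for which Erbb3d/d replicate 2 was most often highest. Relative to Pecam1, Lyve1 stood at 1.95 and 1.92 in Erbb3d/d replicates 1 and 4 and between 0.540 and 1.01 in the other 6 libraries.

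Other lymphatic genes were read from a separate list of 9. Ccl21a was listed at 0 in every library, and 8 were tested. By edgeR over all libraries, 0 had an adjusted p under 0.05 in either direction. At an unadjusted p under 0.05, 0 were higher and 2 lower, Gja1 and Nr2f2, both of which uterine stroma also expresses strongly. Flt4, which encodes the receptor VEGFR3 for lymphatic growth factors, had the smallest p of the higher ones without being significant. It had 28.7, 27.5, 25.1 and 13.5 CPM in Erbb3f/f and 56.0, 29.0, 14.2 and 59.0 CPM in Erbb3d/d (log2 fold change 0.74, SE 0.43).

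Mmrn1, Reln and Foxc2, named after their values were seen, had the same highest and lowest libraries as Lyve1. Flt4 and Itga9 did too, while Pdpn, Gja1 and Nr2f2 did not. Pdpn, the mucin podoplanin, was lowest in Erbb3d/d replicate 2 (12.4 CPM, log2 fold change 0.05, SE 0.23). Itga9, an integrin of lymphatic valves, was high in Erbb3d/d replicates 3 and 4 (61.7 and 63.6 CPM) but not in replicate 1 (47.7 CPM). Its log2 fold change was 0.22 (SE 0.18). Summed, the list stood at 1226 CPM in Erbb3f/f and 1027 in Erbb3d/d, with Nr2f2 its most abundant gene. Mmrn1, a multimerin, had 115.9 and 170.3 CPM in Erbb3d/d replicates 1 and 4 and 24.0 to 74.1 CPM in the other 6 libraries. Reln, which encodes the secreted glycoprotein reelin, had 37.4 and 51.9 CPM there and 5.99 to 26.3 elsewhere. Foxc2, a transcription factor of lymphatic valves, had 4.82 and 5.53 CPM there and 0.339 to 3.97 elsewhere. Smooth muscle markers were also highest in these 2 libraries, with a summed CPM of 5700 and 3587 beside 2747 and 2711 in Erbb3d/d replicates 2 and 3 and 1464 to 2509 in Erbb3f/f. All 12 of them had a log2 fold change above 0. Leukocyte markers summed to 987 to 1845 CPM in Erbb3f/f and 1238 to 1613 CPM in Erbb3d/d, with 8 of 14 above 0. The part of either in the lymphatic differences was not tested.

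**Figure D5:**
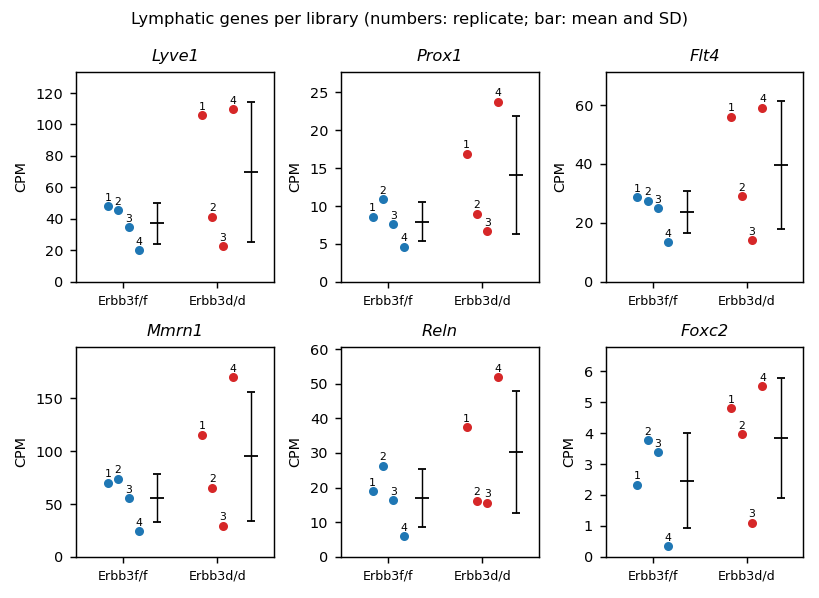
CPM of the lymphatic members Lyve1 and Prox1 and of 4 other lymphatic genes in each library, numbered by replicate, with the mean and SD of each genotype. In all 6 panels Erbb3d/d replicates 1 and 4 are the highest points and Erbb3f/f replicate 4 is the lowest.

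Pericyte genes showed no shared direction between the labels. Rgs5 had 90.6, 138.4, 26.7 and 25.7 CPM in Erbb3f/f replicates 1 to 4 and 54.5, 83.9, 22.6 and 26.7 CPM in Erbb3d/d. Within Erbb3f/f it differed 5.39-fold between the highest and the lowest library, and its fitted variation of 0.587 was the largest of the 32. The log2 fold change of -0.59 (SE 0.62, adjusted p = 0.752, edgeR) ran from -1.02 to -0.02 over the alternatives.

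Kcnj8 and Abcc9 form 1 channel and lie beside each other on chromosome 6 (142564837 to 142571614 and 142587862 to 142702315, GRCm38, both on the minus strand). Kcnj8 had 19.9, 24.3, 12.2 and 10.7 CPM in Erbb3f/f and 30.0, 17.7, 13.8 and 20.8 CPM in Erbb3d/d. Abcc9 had 28.4, 31.2, 10.8 and 14.0 CPM in Erbb3f/f and 29.8, 26.7, 15.7 and 18.4 CPM in Erbb3d/d. Erbb3f/f replicates 3 and 4 were the lowest libraries for both genes, and the log2 fold changes were 0.29 (SE 0.30) and 0.10 (SE 0.36).

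Cspg4 had 48.4, 58.0, 32.8 and 29.4 CPM in Erbb3f/f and 54.6, 56.0, 49.2 and 41.3 CPM in Erbb3d/d. Every Erbb3d/d value lay inside the Erbb3f/f range (log2 fold change 0.25, SE 0.21). Cspg4 is also a gene of glial progenitors, and the glial markers Sox10 and Foxd3 had 0 reads in all 8 libraries. Pericytes share contractile genes with smooth muscle, whose 12 markers summed to 1464 to 2509 CPM in Erbb3f/f and 2711 to 5700 CPM in Erbb3d/d. Their part in the pericyte values was not tested. On a separate list of 15 other pericyte and mural genes, 14 were tested and 0 had an unadjusted p under 0.05, with 7 above and 7 below 0 and a median log2 fold change of 0.00375. The smallest p upward, not significant, belonged to Pdgfrb, the PDGF receptor of mural cells and fibroblasts (log2 fold change 0.23, SE 0.15), and downward to Heyl, a Notch target (-0.41, SE 0.20).

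Summed over each group, the levels of the labels overlapped. Blood endothelial members summed to 1473, 1374, 826 and 928 CPM in Erbb3f/f replicates 1 to 4 and 1141, 1358, 838 and 968 CPM in Erbb3d/d, of which Cd34 made up 35.0%. Without Cd34 the means were 685 and 761 CPM, so that the order of the labels turned. The order also turned for pericyte genes without Rgs5, with means of 80.05 and 93.5 CPM. Pericyte members summed to 187.3, 252.0, 82.5 and 79.8 CPM in Erbb3f/f and 168.9, 184.3, 101.3 and 107.2 CPM in Erbb3d/d. The libraries with the highest blood endothelial sums were also those with the highest pericyte sums, Erbb3f/f replicates 1 and 2 and Erbb3d/d replicates 1 and 2.

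Further endothelial genes were read by vessel type from lists outside the 32 members. With genotype as the only term and all libraries kept, edgeR gave an adjusted p under 0.05 to 0 of the genes tested there. Of 8 tested arterial genes, 7 had a log2 fold change above 0 and 2 an unadjusted p under 0.05, both higher, with a median of 0.42. Over all genes tested, 48.0% were above 0, and 6.64% were higher at an unadjusted p under 0.05 by edgeR. The smallest p belonged to Efnb2, the arterial ephrin that epithelium and stroma also make. Its mean and SD were 165.7 ± 43.6 CPM under Erbb3f/f and 284.5 ± 100.5 under Erbb3d/d (n = 4 each; log2 fold change 0.78, SE 0.27). Downward it belonged to Notch4, an endothelial Notch receptor (log2 fold change -0.05, SE 0.36, with its sign turning under 4 alternatives). Of 7 venous and activation genes, 5 were above 0, and Vcam1 (0.61, SE 0.29) and Sele (-0.44, SE 0.84), both leukocyte adhesion molecules, had the smallest p in each direction.

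Of 10 tested capillary and angiogenic genes, 7 were above 0 and 1 had an unadjusted p under 0.05. That gene was Pdgfb, the ligand with which endothelium recruits pericytes, with 29.2 ± 3.35 CPM under Erbb3f/f and 39.3 ± 4.78 under Erbb3d/d (mean ± SD, n = 4; log2 fold change 0.43, SE 0.13, adjusted p = 0.296, edgeR). Apln, a tip cell ligand, had the smallest p downward, with 23.2, 37.5, 7.38 and 14.1 CPM in Erbb3f/f and 9.34, 17.5, 5.44 and 5.79 CPM in Erbb3d/d (-1.12, SE 0.53). Of 17 tested pan-endothelial genes, 15 were above 0 and 3 had an unadjusted p under 0.05, all higher, with a median of 0.29. The shares over all genes tested were 48.0% above 0 and 6.64% higher at that p.

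Aqp1, the water channel of endothelium and red cells, was the first of these. It had 89.9, 99.0, 51.7 and 44.5 CPM in Erbb3f/f replicates 1 to 4 and 211.1, 131.3, 140.7 and 179.1 CPM in Erbb3d/d replicates 1 to 4. The labels did not overlap, as held upward for 2.56% of all genes tested. Between the labels the log2 fold change came to 1.22 (SE 0.27; adjusted p = 0.225 by edgeR, 0.00129 by DESeq2). The 12 smooth muscle markers did not overlap either, with sums of 1464 to 2509 CPM in Erbb3f/f and 2711 to 5700 CPM in Erbb3d/d. Their part in the level of Aqp1 was not tested. Gata2, a transcription factor of endothelium that the progesterone-responsive uterus also expresses, had the smallest p downward (-0.20, SE 0.13). Gja1, the gap junction gene of the lymphatic list, averaged 516.5 ± 27.8 CPM under Erbb3f/f and 335.1 ± 79.0 under Erbb3d/d (mean ± SD, n = 4; log2 fold change -0.62, SE 0.15). The adjusted p stood at 0.225 by edgeR and 0.0141 by DESeq2, and by edgeR at 0.0173 once Erbb3d/d replicate 2 was left out.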

How the data were processed

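The authors deposited 1 table per library of raw read counts for 23420 gene symbols. HISAT2, SAMtools, HTSeq and StringTie and the builds mm10 and GRCm38 are named, without role or version, in the submitters' processing notes. The annotation and counting options are not given in the sources used here. Per the labels' protocols, libraries were poly(A)-selected and non-directional. The 5 closing lines that name no gene were left out, which kept 27.0% to 29.1% of entries.

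Counts were analysed with edgeR 4.0.16 in R 4.3.3. Genes were kept by filterByExpr (14598), scaled by TMM and tested by quasi-likelihood (robust), with genotype as the only term and Benjamini-Hochberg adjustment over all genes at 0.05. The test was first run on simulated data. At an adjusted p under 0.05 by edgeR it recovered 61.0% of simulated log2 fold changes of size 1 and 94.85% of those of size 2, with 9 false calls. Recovery among the members alone was not measured, and their fitted variation was larger (median 0.339 beside 0.175 over all genes). A member not called may therefore still differ. DESeq2 1.42.0 and limma 3.58.1 (voom), other scalings and filters, a replicate block and leaving out each library were alternatives. Lengths, positions and exon overlaps are from GENCODE vM21 (GRCm38). Of the genes on the other lists, 6 were found under an older symbol and 2 were not matched. All 32 members are named. Values in every library are given for the highest member per length in each role, members with an unadjusted p under 0.05, lymphatic and pericyte members, and some others chosen after their values were seen. From each other list the smallest p in each direction is named. Members and lists were chosen with earlier results of these data known.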

Additional observations from a re-analysis of the deposited data

Results flagged for a closer look

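Cdh5 in Erbb3d/d replicate 2 had 275.3 CPM, far above the other Erbb3d/d libraries at 99.0 to 117.6 CPM. It was the only such gap among 72 sets of 4 values, each the CPM of a member or list under one label, where chance alone gives about 1 in 20, or 3.6.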

How the results depend on the processing

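No member was called under any of the 16 alternatives. The number of genes called over all genes was 0 in edgeR's test and also 0 with other scalings, other filters and limma-voom. It was 262 with DESeq2, 52 with the replicate number as a block, and 0 to 259 when 1 library was left out, the latter without Erbb3d/d replicate 2. Same-numbered libraries correlated in their deviations at 0.221, 0.159, 0.0959 and 0.145. Correlations between different numbers were mostly negative but ran from -0.296 to 0.302, the latter for Erbb3f/f replicate 4 with Erbb3d/d replicate 3. Since not each library went best with its own number, the numbers were not taken as pairs. The block called 0 members. Of the members, 21 kept their sign throughout. The sign of 11 turned only when 1 library was left out, with log2 fold changes of -0.0483 to 0.29 for Pecam1, -0.12 to 0.31 for Emcn, -0.0298 to 0.36 for Egfl7, -0.12 to 0.36 for Esam, -0.13 to 0.0834 for Eng, -0.13 to 0.57 for Robo4, -0.27 to 0.36 for Erg, -0.00495 to 0.18 for Fli1, -0.23 to 0.45 for Mmrn2, -0.0802 to 0.38 for Rasip1 and -0.12 to 0.36 for Abcc9. Of the other named genes, Notch4 ran from -0.27 to 0.19, with 0.00782 under the block, and Sele from -0.81 to 0.92. The cause was not tested. Without its highest member the mean sum was 685 CPM (Erbb3f/f) and 761 CPM (Erbb3d/d) for blood endothelium, 7.93 and 14.1 CPM for the lymphatic pair, and 80.05 and 93.5 CPM for pericytes. Efnb2 was called with the replicate block (adjusted p = 0.0406, edgeR).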

Other observations

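Red cell and platelet markers were read beside the vascular genes. Hba-a1 and Hba-a2 were listed at 0 in every library, which says little of their level, since they are near-identical copies and non-unique alignments are set aside in the tables. The beta-globin gene listed as Beta-s had 5.16, 8.17, 10.8 and 5.99 CPM in Erbb3f/f replicates 1 to 4 and 15.0, 12.5, 10.2 and 14.4 CPM in Erbb3d/d replicates 1 to 4 (log2 fold change 0.78, SE 0.25, adjusted p = 0.314, edgeR). The 6 platelet markers summed to 8.90 to 10.2 CPM in Erbb3f/f and 9.33 to 18.2 CPM in Erbb3d/d.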
